A study of Mus musculus with 412 samples.

Results

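The genes described here are 10 receptors for inflammatory mediators, out of 45513 Ensembl genes in the deposited table: the prostanoid receptors Ptger1, Ptger2, Ptger3, Ptger4, Ptgir and Ptgfr, the bradykinin receptors Bdkrb1 and Bdkrb2, and the histamine receptors Hrh1 and Hrh3. They were taken by gene symbol and not by their values, and all 10 were found in the table. Of these, 9 reached a mean level of 1 over all neurons and entered the comparisons of means, and Bdkrb1 did not. Sensory neurons were traced from the colon of healthy C57BL/6J mice by injection of the retrograde dye Fast Blue into the colon wall, and dorsal root ganglia (DRG) were taken 3 to 10 days later. Thoracolumbar (TL, T10 to L1) and lumbosacral (LS, L5 to S2) ganglia were dissociated into separate cultures, and dye-labelled neurons were picked by hand and sequenced 1 by 1. The table holds 325 neurons, 167 TL and 158 LS, and all received the same surgery and tracer. No label ties a neuron to a mouse, so TL and LS are 1 sample each, neurons are not replicates and no p-value is given.

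Prostanoids, bradykinin and histamine are released in inflamed tissue and act on G protein-coupled receptors of sensory nerve endings. Receptors coupled to Gs (EP2 and EP4 for prostaglandin E2, IP for prostacyclin) raise cyclic AMP, those coupled to Gq (EP1, FP, B1, B2 and H1) activate phospholipase C, and those coupled to Gi (EP3 and H3) lower cyclic AMP. Protein kinases downstream of Gs and Gq phosphorylate ion channels, among them the capsaicin and heat receptor Trpv1, which lowers the threshold of nociceptors.

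Levels are given as x, the deposited log2 value taken off its log scale less 1 and rescaled to a sum of 1000000 in each neuron. This scale is per length, so that levels of different genes can be compared. A neuron was counted as having a gene at an x of 10 or more, which stood for a median of 84.1 reads for Ptger4, 41.4 for Ptgir and at least 24.2 for Bdkrb2, whose length was found from the values. Shares are followed by their 95% interval (Clopper-Pearson, exact). It reflects counting error alone, since the reads carry no molecular identifiers. Recovered reads ranged from 485751 to 10499482 per TL neuron and from 416007 to 12058968 per LS neuron. Neurons were also divided by Gfra3, the artemin receptor subunit found in peptidergic nociceptors, and by Piezo2, the mechanically gated channel. An x of 10 or more for Gfra3 alone was found in 158 neurons (82 TL and 76 LS), for Piezo2 alone in 120 (55 TL and 65 LS), for both in 25 and for neither in 22. These classes are ranges of 2 genes and not cell types, and 6 neurons for Gfra3 and 27 for Piezo2 lay between an x of 5 and 20. Trpv1 was present in 98.7% of Gfra3-only and 40.0% of Piezo2-only neurons.

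All 8 sensory neuron markers had a mean x of at least 10 in TL and in LS neurons. Satellite glia RNA was also present: the summed x of 10 satellite glia markers ranged from 0.438 to 99134 in TL neurons (median 1995) and from 6.90 to 60260 in LS neurons (median 207). None of these 10 markers was at 0. Other marker sums moved with the classes and with Trpv1. The median sum of 8 macrophage markers was 60.3 in Gfra3-only (range 0 to 299) and 14.6 in Piezo2-only neurons (0 to 147), with 1 of the 8 at a mean of 10 or more in each class and C1qc at 0 in the former. That of 7 fibroblast and pericyte markers was 63.4 (0 to 1878) and 8.29 (0 to 1694), and that of 4 mast cell markers 148 (0 to 428) and 13.9 (0 to 531), with Mcpt4 at 0 in every neuron. In neurons with and without Trpv1 these medians were 46.2 and 8.48, 36.0 and 10.7, and 129 and 2.84. Over all neurons each of these sums came mostly from 1 gene: C1qb (mean 36.1), Dcn (160) and Kit (122). The other mast cell markers had means of 0.608 or less, so this sum was in effect the level of Kit. Dcn was higher in Gfra3-only than in Piezo2-only neurons (259 against 68.4), as were Lum, Col1a1 and Col3a1 at low means. Rgs5 (0.800 against 41.2), Pdgfrb (0.974 against 2.57) and Pdgfra (0.0175 against 0.241) were lower. The part of these sums in the class and Trpv1 comparisons was not tested. The part of satellite glia RNA in differences between TL and LS was not tested, and counts without the neurons richest in glial RNA are given with the effects of processing.

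Ptgir, which encodes the prostacyclin receptor IP, had the highest level of the 10. Its x ranged from 0 to 592 with a median of 59.7, and it was present in 77.8% of neurons (95% CI 72.9 to 82.2). Ptger1 (EP1) followed, with x from 0 to 143, a median of 16.1 and presence in 65.8% (60.4 to 71.0). These were the only receptors of the 10 found in over 50% of neurons. Part of the Ptger1 exons is annotated on both strands and the counting is not stated to use strand, so its level is uncertain.

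The next receptors formed a middle group. Ptger4 (EP4) had a median x of 6.38, reached 80.5 and was present in 34.5% of neurons (29.3 to 39.9). Bdkrb2, the constitutive bradykinin B2 receptor, had a median of 0.867, reached 72.4 and was present in 26.5% (21.7 to 31.6). Ptger3 (EP3) had a median of 1.04, reached 111 and was present in 21.2% (16.9 to 26.1). The intervals of neighbours overlap in this group, so Ptger4 cannot be ordered above Bdkrb2, nor Bdkrb2 above Ptger3. Hrh3 (H3) had a median of 1.21, reached 51.3 and was present in 14.5% (10.8 to 18.8), and Ptger2 (EP2) had a median of 0, reached 63.3 and was present in 12.6% (9.21 to 16.7).

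The remaining receptors were rare. Hrh1 (H1) was present in 14 neurons, or 4.31% (2.38 to 7.12), with x up to 73.3. Ptgfr, the receptor for prostaglandin F2α, was present in 6 neurons, or 1.85% (0.680 to 3.98), with x up to 198. Bdkrb1, the B1 receptor that is induced by injury in many tissues, was present in 1 neuron, a Gfra3-only LS neuron with an x of 15.2 (0.308% of neurons, 0.00779 to 1.70).

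**Figure D1:**
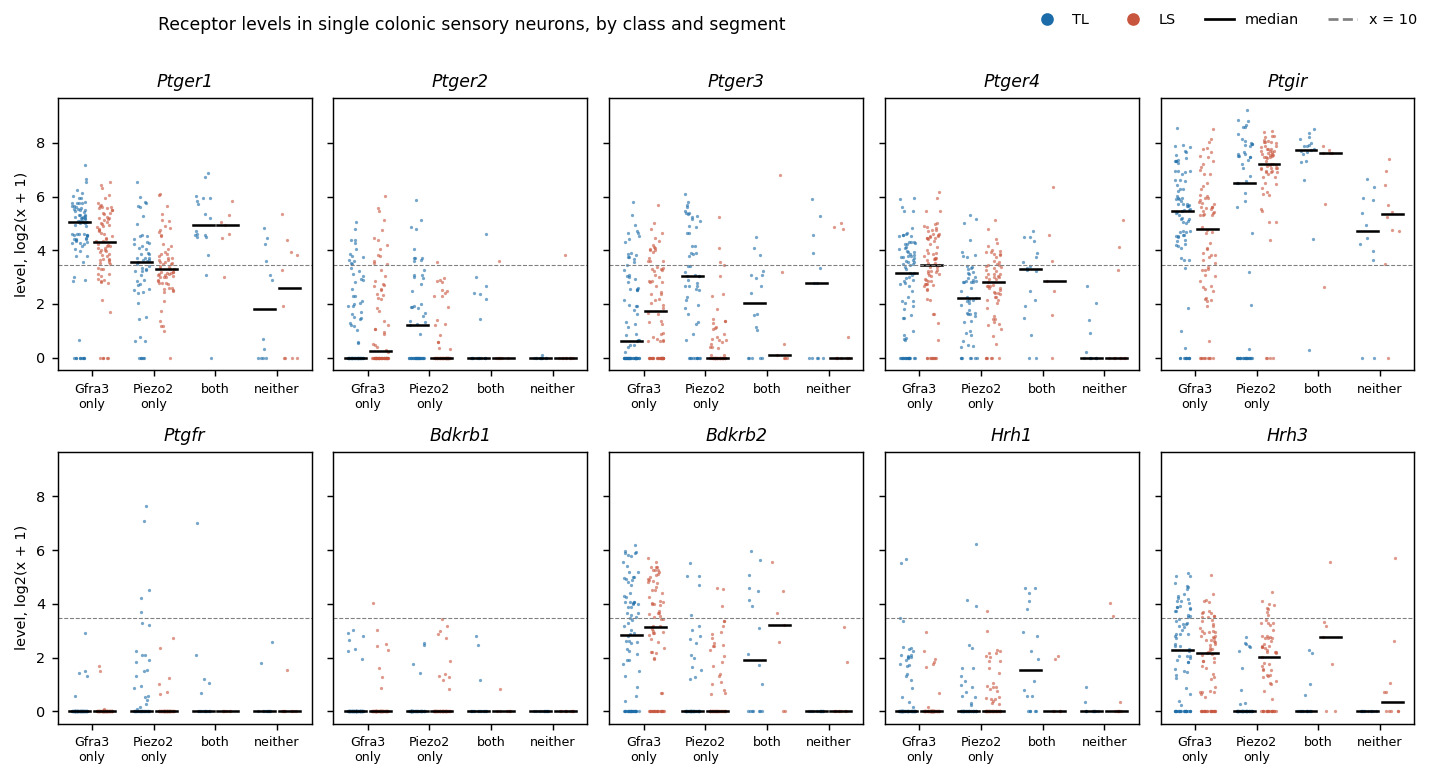
Level of each receptor gene in every neuron as log2(x + 1), by Gfra3 and Piezo2 class, with TL neurons in blue, LS neurons in red, the median of each group as a black bar and the dashed line at x = 10. Ptgir medians were above the line in every class, while Bdkrb2 was mostly at 0 in Piezo2-only neurons and Ptger3 reached higher in TL than in LS Piezo2-only neurons.

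The start regions of 4 genes are shown because their levels related to each other in different ways. Bdkrb2 followed Trpv1 most closely of the 10 receptors. In TL Piezo2-only neurons Ptgir was less frequent with Ptger3 than without it, with overlapping intervals. Of all 69 neurons with Ptger3, 42 also had Ptgir. The sequences are RefSeq promoter windows (GRCm38.p6, 250 bases before to 50 after the gene start). Capitals mark matches on either strand to any of several motifs. The GC box was searched as GGGCGG. The CCAAT box was searched by the letters of its name. The E-box was searched as CAGCTG, and the half-site of the cyclic AMP response element as TGACG.
Bdkrb2 (chr12:105562922-105563221, plus strand): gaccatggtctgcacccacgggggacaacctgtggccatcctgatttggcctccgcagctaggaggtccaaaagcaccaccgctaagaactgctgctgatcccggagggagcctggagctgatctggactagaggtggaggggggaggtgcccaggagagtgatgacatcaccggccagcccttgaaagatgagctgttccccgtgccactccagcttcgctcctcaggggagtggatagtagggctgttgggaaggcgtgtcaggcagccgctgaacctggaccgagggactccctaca
Trpv1 (chr11:73233899-73234198, plus strand): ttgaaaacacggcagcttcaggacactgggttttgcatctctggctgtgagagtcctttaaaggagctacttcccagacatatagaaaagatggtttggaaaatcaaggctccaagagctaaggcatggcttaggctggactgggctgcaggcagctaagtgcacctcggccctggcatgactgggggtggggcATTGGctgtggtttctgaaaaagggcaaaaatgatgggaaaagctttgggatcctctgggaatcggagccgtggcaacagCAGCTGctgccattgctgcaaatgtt
Ptger3 (chr3:157566626-157566925, plus strand): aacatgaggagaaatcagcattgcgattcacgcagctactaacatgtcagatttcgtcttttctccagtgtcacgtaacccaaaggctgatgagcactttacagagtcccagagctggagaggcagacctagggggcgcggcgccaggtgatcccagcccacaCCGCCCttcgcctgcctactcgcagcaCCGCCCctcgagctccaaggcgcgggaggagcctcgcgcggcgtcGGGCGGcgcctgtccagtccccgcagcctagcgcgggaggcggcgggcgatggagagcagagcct
Ptgir (chr7:16906240-16906539, plus strand): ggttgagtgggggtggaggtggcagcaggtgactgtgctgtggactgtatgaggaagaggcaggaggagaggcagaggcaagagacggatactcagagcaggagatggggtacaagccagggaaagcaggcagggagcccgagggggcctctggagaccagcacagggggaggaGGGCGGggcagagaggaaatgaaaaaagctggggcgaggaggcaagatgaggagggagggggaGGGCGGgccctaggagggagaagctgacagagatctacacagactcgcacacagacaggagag
RefSeq windows were found for 8 of the 10 receptors, and Ptger1 and Bdkrb1 had no entry. Hrh1 had several windows and was counted if any of them held a motif, whereas shares of all promoters are over single windows. A GC box was in a window of 6 of these 8 receptors and in 35.7% of 32851 mouse promoters. It was found 3 times in the window of Ptger3 and 2 times in that of Ptgir, and neither Bdkrb2 nor Trpv1 had one. A CCAAT box was in 3 of the 8 and in 37.4% of all promoters. The half-site TGACG and the E-box were in none of the 8, against 20.8% and 16.3% of all promoters, while Trpv1 had 1 CCAAT box and 1 E-box. A match describes letters in this window and not a site in use.

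Bdkrb2 had the highest Gfra3-only over Piezo2-only ratio of the receptors over all neurons, though within TL that of Hrh3 was higher. It was present in 43.0% of Gfra3-only neurons (35.2 to 51.1), with x from 0 to 72.4 and a median of 7.05, and in 6.67% of Piezo2-only neurons (2.92 to 12.7), with x up to 45.3 and a median of 0. Both ranges started at 0 and overlapped. Mean levels were 13.4 and 2.76, a ratio of 4.84, and the ratio was above 1 in each of the 5 plates that held both segments. Neurons with both Gfra3 and Piezo2 resembled the Gfra3-only class in this gene, at 40.0% (21.1 to 61.3). Of 22 neurons with neither, 0 had it, which allows a share of up to 13.6%. These 22 had a median of 9459 genes above 0, against 13678.5 in Gfra3-only and 14173.5 in Piezo2-only neurons. Their median sum of satellite glia markers was 1412, against 960 and 854. The part of these differences in the absence of Bdkrb2 was not tested.

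Over all neurons, the ratio of mean levels between Gfra3-only and Piezo2-only neurons passed 2-fold upwards for 2 of the 9 receptors tested, against 6.90% of the 15249 genes tested, and downwards for 2, against 7.82% (4 of 9 against 14.7% in either direction). The median log2 ratio was 0.62 over the 9 receptors and -0.01 over all genes tested. Besides Bdkrb2, Hrh3 was higher in the Gfra3-only class (mean x 6.09 against 2.57, ratio 2.37, in the same direction in 5 of 5 plates). Ptgir was lower (60.9 against 145, ratio 0.420, 5 of 5 plates), as was the rare Ptgfr (0.103 against 3.65, ratio 0.0282). The mean of Ptgfr was above 1 in the Piezo2-only class alone, so it is not read against the background. Ptger1 lay at the limit, with 28.5 against 14.4, a ratio of 1.99 and 5 of 5 plates. The ratios of Ptger4, Ptger2, Ptger3 and Hrh1 were 1.79, 1.54, 0.741 and 0.783. When mean log2(x + 1) was compared instead, which gives less weight to single high neurons, 2 of 9 passed, Bdkrb2 at a difference of 1.81 and Ptgir at -1.05.

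Ptgir was lower in level in Gfra3-only neurons, and its presence differed between the classes in opposite directions in TL and LS, as given with the segments. With the segments pooled, Ptgir was present in 74.7% of Gfra3-only neurons (67.2 to 81.3) and in 77.5% of Piezo2-only neurons (69.0 to 84.6), with medians of 38.9 and 137. Its level was highest in neurons with both genes, of which 92.0% had it, with a median of 208. Ptger1 showed the other order, with presence in 80.4% of Gfra3-only and 47.5% of Piezo2-only neurons. Ptger4 was present in 48.1% and 20.0% of these classes.

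Mean levels of 2 of the 9 receptors were past 2-fold between segments, and both were lower in LS, against 5.76% of all genes lower and 5.04% higher (10.8% either way). Both had LS means below 1 and passed the filter on means through TL alone, the segment in which they were higher, so nothing is read from this count against the background. The median log2 ratio of LS over TL was -0.27 over the 9 and 0.05 over all genes tested. Hrh1 had a mean x of 2.44 in TL and 0.698 in LS (ratio of LS over TL 0.286, lower in 5 of 5 plates), and was present in 11 of 167 TL and 3 of 158 LS neurons. Ptgfr had means of 3.47 and 0.123 (ratio 0.0354, lower in 4 of 5 plates), and its 6 neurons were all TL. Neither passed on mean log2(x + 1), where 0 of 9 receptors did, with differences of -0.32 for Hrh1 and -0.37 for Ptgfr. Ptger3 was lower in LS in 5 of 5 plates without passing the limit (9.17 and 4.94, ratio 0.539). The other ratios lay between 0.746 for Ptger1 and 1.30 for Hrh3, with 1.03 for Ptgir. Trpv1 itself was higher in LS, with means of 926 and 454 and a ratio of 2.04.

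Shares of Ptger3, Ptger2, Hrh3 and Ptgir lay further apart between segments within the Piezo2-only class than over all neurons. Among Piezo2-only neurons, Ptger3 was present in 22 of 55 TL neurons (40.0%, 27.0 to 54.1) and in 3 of 65 LS neurons (4.62%, 0.962 to 12.9). Its x ranged from 0 to 67.6 in the former with a median of 7.19, and from 0 to 36.3 in the latter with a median of 0. The TL share was higher in each of 5 plates, where it ran from 20.0% to 57.1%, against 0% to 9.09% in LS. Among Gfra3-only neurons the same gene was present in 19.5% of TL (11.6 to 29.7) and 22.4% of LS neurons (13.6 to 33.4), which overlap.

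Ptger2 followed the same pattern at lower levels. It was present in 18.2% of TL (9.08 to 30.9) and 1.54% of LS Piezo2-only neurons (0.0389 to 8.28), with a higher TL share in 5 of 5 plates, and in 15.8% and 18.4% of Gfra3-only neurons. Hrh3 and Ptgir showed the opposite order. Hrh3 was present in 0 of 55 TL Piezo2-only neurons, which allows a share of up to 5.45%, and in 12.3% of LS ones (5.47 to 22.8), with means of 0.565 and 4.26. The limit of 5.45% is narrower than an exact interval, so these shares are not separated by it. In Gfra3-only neurons Hrh3 was present in 29.3% of TL (19.7 to 40.3) and 17.1% of LS neurons (9.43 to 27.5), with overlapping intervals, although the TL share was higher in 5 of 5 plates.

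Ptgir was present in 58.2% of TL (44.1 to 71.3) and 93.8% of LS Piezo2-only neurons (85.0 to 98.3), with a higher LS share in 5 of 5 plates. Means were close, at 129 and 158, since the TL neurons that had Ptgir had more of it (median 192 against 174). In Gfra3-only neurons the order turned, with 82.9% of TL (73.0 to 90.3) and 65.8% of LS neurons (54.0 to 76.3), with overlapping intervals. Bdkrb2 and Ptger4 did not differ beyond their intervals between segments in either class.

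**Figure D2:**
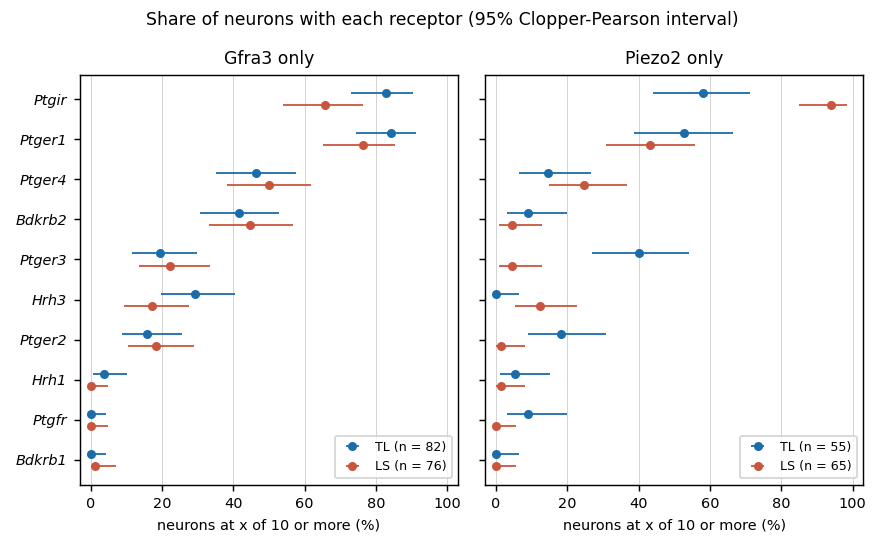
Share of Gfra3-only (left) and Piezo2-only neurons (right) with each receptor at x of 10 or more, with TL in blue, LS in red and exact 95% intervals as bars. TL and LS intervals overlap for each receptor in Gfra3-only neurons, whereas those of Ptger2, Ptger3 and Ptgir do not overlap in Piezo2-only neurons.

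Within TL neurons, Gfra3-only over Piezo2-only ratios passed 2-fold upwards for 3 of 9 receptors (10.7% of all genes), namely Ptger1 at 2.05, Bdkrb2 at 3.99 and Hrh3 at 12.8, and downwards for Ptger3 at 0.361 and Ptgfr at 0.0191 (2 of 9, 9.01% of all genes, 19.8% in either direction). The TL mean of Hrh3 was below 1 in Piezo2-only neurons (0.565) and that of Ptgfr in Gfra3-only neurons (0.147). Within LS neurons 3 passed upwards (7.33% of all genes), with Ptger2 at 5.33, Ptger3 at 3.77 and Bdkrb2 at 5.93. In LS, 3 passed downwards (8.65%, 16.0% in either direction), with Ptgir at 0.354, Ptgfr at 0.267 and Hrh1 at 0.320. The LS means of Ptgfr (0.0548 and 0.205) and Hrh1 (0.280 and 0.875) were below 1 in both classes, so that Ptgir was the only one of these 3 with LS means above the filter. Ptger3 was therefore lower in the Gfra3-only class in TL, in 4 of 5 plates, and higher in it in LS, in 5 of 5 plates.

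In TL Piezo2-only neurons Ptgir was less frequent with Ptger3 than without it, though the intervals overlap. Ptgir was present in 8 of 22 neurons with Ptger3 (36.4%, 17.2 to 59.3) and in 24 of 33 without it (72.7%, 54.5 to 86.7). Median Ptgir levels were 0 and 108. In LS the 3 Piezo2-only neurons with Ptger3 were too few for this comparison, and 60 of 62 without it had Ptgir. Ptger2 accompanied Ptger3 in this group, as 7 of 22 TL Piezo2-only neurons with Ptger3 and 3 of 33 without it had Ptger2. Over all 325 neurons the Spearman correlation of log2(x + 1) was -0.23 for Ptger3 with Ptgir and 0.27 for Ptger2 with Ptger3. Within TL Piezo2-only neurons these were -0.13 and 0.31. For Ptger3 with Ptgir the correlation was further from 0 in LS neurons (-0.39) and in LS Gfra3-only neurons (-0.37). Lower Ptgir with higher Ptger3 was therefore not particular to TL Piezo2-only neurons. These neurons share plates and depth, and the correlations are descriptions.

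**Figure D3:**
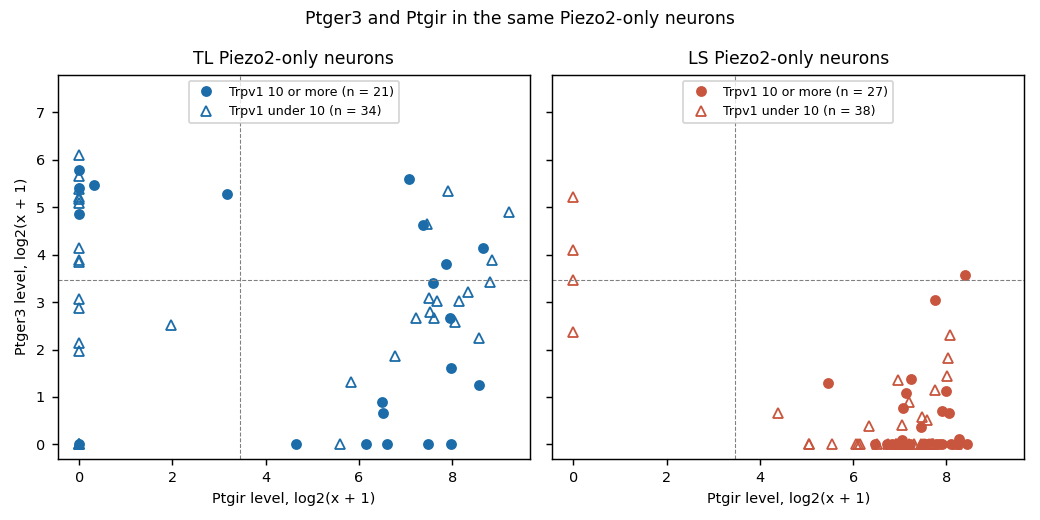
Ptger3 against Ptgir in each Piezo2-only neuron, both as log2(x + 1), with TL on the left and LS on the right, filled circles for neurons with Trpv1 at 10 or more, open triangles for the others and dashed lines at x = 10. Of 22 TL neurons above the Ptger3 line, 8 were also above the Ptgir line, whereas LS neurons gathered at the lower right.

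Bdkrb2, Ptger1, Ptger4, Hrh1 and Hrh3 had higher means in neurons with Trpv1 than in those without. Trpv1 was at 10 or more in 234 neurons (120 TL and 114 LS), and 17 neurons lay between 5 and 20. The ratio of means between neurons with and without Trpv1 passed 2-fold upwards for 5 of the 9 receptors, against 8.55% of all genes, and downwards for 1, against 5.50% (14.0% either way). Hrh1, counted upwards, and Ptgfr, counted downwards, had a mean above 1 only in the group where they were higher. These receptors are therefore not read against the background. The median log2 ratio was 1.12 over the 9 and 0.06 over all genes tested.

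Bdkrb2 again came first. It was present in 35.0% of neurons with Trpv1 (28.9 to 41.5) and 4.40% of those without (1.21 to 10.9), with mean x of 11.2 and 1.75, a ratio of 6.39 and the same direction in 5 of 5 plates. Of the 86 neurons with Bdkrb2, 82 had Trpv1. Hrh1 was present in 5.98% of neurons with Trpv1 (3.31 to 9.83) and in 0 of 91 without, which allows a share of up to 3.30%. This limit is narrower than an exact interval and does not separate the shares. The mean ratio of Hrh1 was 5.45 (2.06 over 0.378, the latter below the filter). Ptger1 was present in 77.8% and 35.2% of these groups, with means of 27.7 and 9.80 and a ratio of 2.83 in the same direction in 5 of 5 plates.

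Ptger4 and Hrh3 passed the limit with less agreement between plates. Ptger4 was present in 42.3% of neurons with Trpv1 and 14.3% of those without, at a mean ratio of 2.17. Hrh3 was present in 18.8% and 3.30%, at a ratio of 2.56, and each was higher in 4 of 5 plates. Ptger2, at 1.97, lay just under the limit, Ptgir at 0.816 and Ptger3 at 0.574 lay between the limits, and Ptgfr at 0.158 was lower (0.739 against 4.68, the former below the filter). On mean log2(x + 1), 2 of 9 passed, Bdkrb2 at a difference of 1.77 and Ptger1 at 1.49. Ptgir was thus common on both sides, in 80.3% of neurons with Trpv1 and 71.4% of those without.

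The ratios for Trpv1 within each segment were not alike for all receptors. In TL, 4 of 9 receptors were past 2-fold upwards (11.8% of all genes) and 1 downwards (6.39%, 18.2% either way). In LS, 4 were past it upwards (9.54%) and 0 downwards (6.20%, 15.7% either way). Ptger1 and Bdkrb2 passed in both, with ratios of 2.98 and 6.29 in TL and of 2.64 and 6.53 in LS. Hrh3 had a ratio of 9.04 in TL (5.04 over 0.558, the latter below the filter), while in LS its means were 5.43 with and 3.62 without Trpv1. Hrh1 had a ratio of 27.2 in TL (3.34 over 0.123, the latter below the filter). In LS its ratio was 1.10, with both means below the filter (0.716 and 0.651). Only 11 TL and 3 LS neurons had Hrh1, so its ratios are imprecise. Ptger2 had a ratio of 1.32 in TL and 4.19 in LS (4.12 over 0.982, the latter just below the filter), and Ptger4 of 1.92 and 2.43. These differences between segments were not tested, as each segment is 1 sample.

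Bdkrb2, Ptger4 and Ptger1 were most frequent in neurons with much Trpv1. In 206 neurons with Trpv1 at 100 or more, Bdkrb2 was present in 39.3% (32.6 to 46.3), Ptger4 in 46.1% (39.2 to 53.2) and Ptger1 in 83.0% (77.2 to 87.9). In the 28 neurons with Trpv1 from 10 to under 100, the shares were 3.57% (0.0904 to 18.3), 14.3% (4.03 to 32.7) and 39.3% (21.5 to 59.4), which is near those of neurons without Trpv1. Ptger3 went the other way in TL, with presence in 10 of 17 neurons with low Trpv1 (58.8%, 32.9 to 81.6) and 19 of 103 with high Trpv1 (18.4%, 11.5 to 27.3).

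**Figure D4:**
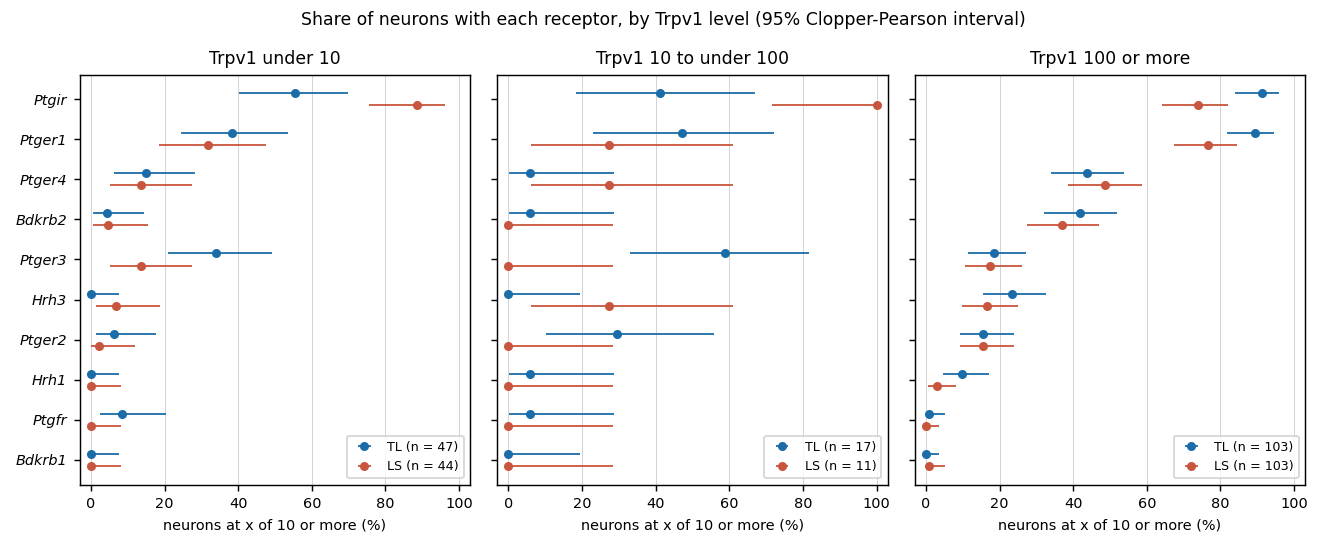
Share of neurons with each receptor at x of 10 or more in neurons with Trpv1 under 10, from 10 to under 100 and at 100 or more, with TL in blue, LS in red and exact 95% intervals as bars. Bdkrb2, Ptger4 and Ptger1 are highest in the right panel, while Ptger3 in TL peaks at 58.8% in the middle one.

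Across all 325 neurons the Spearman correlation with Trpv1 was 0.57 for Bdkrb2, 0.46 for Ptger1, 0.45 for Ptger4 and 0.44 for Hrh3. It was 0.28 for Ptger2, 0.06 for Ptger3, -0.03 for Hrh1, -0.10 for Ptgir and -0.26 for Ptgfr. Within the 158 Gfra3-only neurons, nearly all of which had Trpv1, it was 0.48 for Ptger4, 0.41 for Ptger3, 0.39 for Bdkrb2, 0.37 for Ptger2 and 0.35 for Hrh3. For Ptger1 it was 0.06 there (0.39 in TL and -0.09 in LS), although Pearson's r was 0.45. Ptgir had opposite signs in the segments, with 0.18 in TL and -0.40 in LS. So had Ptger3, with -0.15 in TL and 0.36 in LS, and Hrh1, with 0.22 in TL and -0.22 in LS. Correlations of the 10 receptors with the reads of a neuron lay between 0.06 and 0.26.

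The genes most like each receptor were sought among those with a mean x of at least 10, by Spearman correlation over 325 neurons. For Ptgir they were Smpd3 at 0.73, Vwa7 at 0.72 and the potassium channel Kcnk10 at 0.69. For Ptger1 they were Slc10a6 at 0.67, the tetraspanin Cd9 at 0.64 and Cdhr1 at 0.64. Bdkrb2 was nearest to Sema4d at 0.62, Tmem130 at 0.62 and Peg3 at 0.62, with Trpv1 in place 14. Hrh3 was nearest to the synaptic vesicle gene Sv2a at 0.59, Hpcal4 at 0.58 and Sgsm1 at 0.57, and Ptger4 to Snhg11 at 0.56, Sema4d at 0.55 and Gm27000 at 0.54. Ptger2 (Camk1g 0.48, Lgals3bp 0.47, Cd55 0.46) and Ptger3 (Mapk10 0.44, Lrrc49 0.43) had no gene above 0.50.

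Single neurons usually had several of the receptors. The median was 3 per neuron and the highest 7, and 24 neurons had none. There were 4 or more in 89 neurons (27.4%). This share was 41.8% in Gfra3-only and 9.17% in Piezo2-only neurons, and 35.9% in neurons with Trpv1 against 5.49% in those without. In all, 69 combinations occurred. The commonest was Ptgir alone, in 44 neurons, of which 35 were LS and 30 Piezo2-only. It was followed by Ptger1 with Ptgir in 42 neurons and by Ptger1, Ptger4 and Ptgir in 29. Ptger1, Ptger4, Ptgir and Bdkrb2 came together in 23 neurons, of which 20 were Gfra3-only. Ptger2 with Ptger3 and no other receptor was found in 5 neurons, all TL and Piezo2-only.

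**Figure D5:**
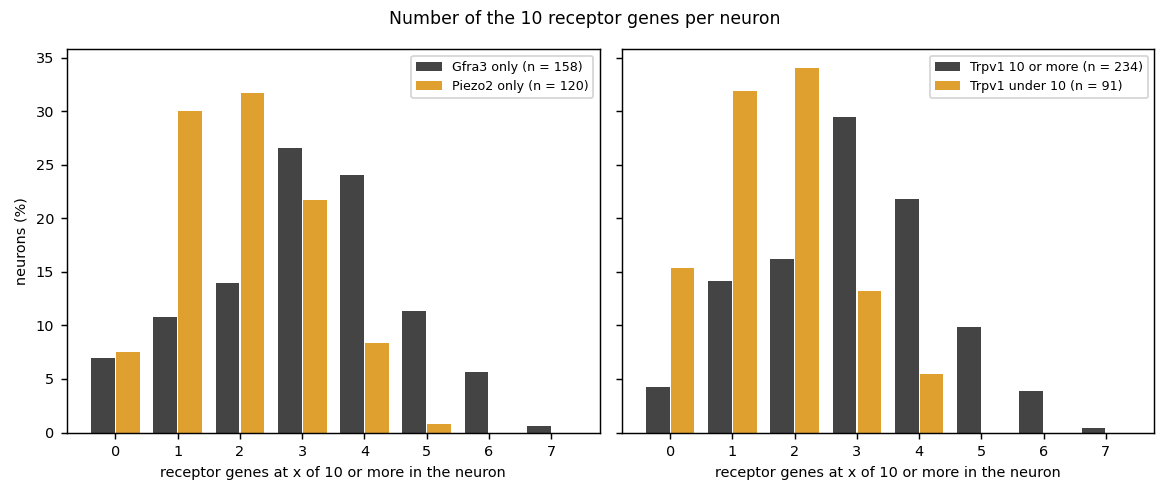
Percentage of neurons by the number of the 10 receptor genes at x of 10 or more, for Gfra3-only and Piezo2-only neurons (left) and for neurons with Trpv1 at 10 or more and under 10 (right). The grey bars of Gfra3-only and Trpv1 neurons lie further right, and no neuron under 10 for Trpv1 had more than 4 receptors.

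By ligand, 91.7% of neurons had a prostanoid receptor of the list (88.1 to 94.5), 26.5% a bradykinin receptor and 18.5% a histamine receptor (14.4 to 23.1). Receptors for all 3 ligands were found in 31 neurons, all of which had Trpv1 and 26 of which were Gfra3-only. A prostanoid receptor, Bdkrb2 or Bdkrb1 and Trpv1 were together in 81 neurons. Bdkrb2 neurons had Ptger1 in 90.7% (82.5 to 95.9), against 56.9% of neurons without Bdkrb2 (50.4 to 63.3), and Ptger4 in 53.5% against 27.6%. Of the 14 neurons with Hrh1, all had Ptger1 and Trpv1, 13 had Ptgir and 8 had Bdkrb2. Hrh1 was present in 5 of 25 neurons with both Gfra3 and Piezo2 (20.0%, 6.83 to 40.7) and in 2 of 22 with neither. Its shares were 1.90% in Gfra3-only and 3.33% in Piezo2-only neurons. The 5 neurons were all TL, as were 18 of the 25, so segment and class are mixed in this comparison. In TL Gfra3-only neurons, Ptger3 was present in 11 of 24 with Hrh3 (45.8%, 25.6 to 67.2) and 5 of 58 without (8.62%, 2.86 to 19.0).

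The 6 neurons with Ptgfr had x of 198, 133, 129, 21.8, 17.5 and 11.9. They came from 2 plates, 5 were Piezo2-only and 5 had Ptgir. The neuron at 11.9 also had a summed x of 21669 over 6 endothelial markers and the neuron at 21.8 one of 362, whereas the other 4 had at most 2.14. The summed x of the satellite glia markers was 3265, 4470 and 1995 in the 3 neurons highest in Ptgfr, and its median was 2630 in the 6 neurons with Ptgfr and 920 in the others. The part of glial RNA in these values was not tested. The means of this gene rest mostly on the 3 highest.

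Among the other receptors for the same ligands, 3 of 5 were at a mean of 1 or more, and all 3 were past 2-fold lower in LS (5.76% of all genes were): the prostaglandin D2 receptor Ptgdr (17.6 in TL and 2.69 in LS, ratio 0.153), the thromboxane receptor Tbxa2r (3.16 and 0.406, ratio 0.128, above the filter through TL alone) and Hrh2 (0.460). Between classes, Hrh2 was higher in Gfra3-only neurons (2.33) and Ptgdr lower (0.487), and Hrh2 was higher with Trpv1 (2.07). Of 13 genes for prostanoid synthesis and removal, 5 were tested, led by Ptges3 (mean 206), the transporter Abcc4 (34.3) and Ptges2 (14.7). Abcc4, which exports prostaglandins and cyclic AMP, was the one past 2-fold, in Gfra3-only neurons (2.90) and with Trpv1 (3.60), and none was past it between segments. The cyclooxygenases Ptgs1 and Ptgs2 had means of 0.183 and 0.262.

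Of 10 kinin and histamine metabolism genes, 5 were tested. Ace, which degrades bradykinin, and Hdc, which makes histamine, were higher in LS (4.55 and 3.44), as were 5.04% of all genes. Their means were 3.41 and 2.25 in LS and 0.749 and 0.653 in TL, so both were above the filter through LS alone. They were at 10 or more in only 8 and 7 neurons. The carboxypeptidase Cpm was higher in Gfra3-only neurons (3.23) and with Trpv1 (3.03), and Hdc was lower in both (0.336 and 0.268). In each of these ratios the lower mean was below the filter. Of 22 G proteins and effectors, 19 were tested, with none past 2-fold between segments. The adenylyl cyclases Adcy3 and Adcy5 were higher in Gfra3-only neurons (2.37 and 2.88) and with Trpv1 (2.06 and 4.10). Adcy1 was lower in both (0.0240 and 0.160), with means there below the filter (0.0635 and 0.469). Of 11 channels that these pathways are known to sensitise, 9 were tested. Apart from Trpv1, Trpa1 was higher in Gfra3-only neurons (22.3) and with Trpv1 (25.9) and lower in LS (0.392). Kcnq3, a subunit of the M-current that bradykinin inhibits in sensory neurons, was lower in Gfra3-only neurons (0.0527) and higher in LS (2.34). Hcn2 was also lower in Gfra3-only neurons (0.493).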

How the data were processed

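Single colonic sensory neurons were sequenced by Smart-seq2. The authors aligned reads to GRCm38.p3 and counted them on Ensembl genes. The submitters' processing notes name bcl2fastq 2.15.0.4, STAR 2.4.1 and featureCounts 1.4.4. The authors deposited 1 table of log2 values (log2 of a length-scaled value with 1 added) for 325 neurons that had passed their quality filter. The labels list 399 neurons and 13 bath controls, and 74 neurons and the controls were not analysed here.

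Values x were taken off the log scale and rescaled to a sum of 1000000 per neuron, because the sums of the deposited values ran from 218865 to 11159067. With GENCODE M21 exon lengths, 65.0% of values above 0 were whole reads within a relative tolerance of 1e-06. For 8712 other genes the shortest length that gave whole reads was used, so the reads per neuron (416007 to 12058968) are lower bounds. Genes with a mean x of at least 1 (15249) were compared by ratios of means with a 2-fold limit. No test was run, since each segment is 1 sample. Library plate (6 plates, of which 5 held both segments) was used as a stratum. A share of 0 allows 3 divided by the number of neurons, which is narrower than the exact interval. Correlations used log2(x + 1).

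The receptors, the gene lists, the thresholds and the classes were chosen with earlier results of these data known. The genes named are all 10 receptors with Trpv1, Gfra3 and Piezo2. For receptors in at least 10% of neurons, the 3 genes with the highest Spearman correlation and a mean x over the same limit of 10 were also named. From each pathway list, genes past 2-fold in a comparison were named, or else the 3 with the highest mean. Some genes that this rule names are not reported here. Up to 20 alternatives changed the scale, thresholds, fold limit, filters, depth and plates. Ptgs1 and Ptgs2 were named outside this rule, after their values had been seen. Doublets were not searched for, as cells were picked singly by hand. Analyses used Python 3.11.15, numpy 2.4.6, pandas 2.3.3, scipy 1.17.1 and matplotlib 3.10.9, and the script was tested on simulated data.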

Additional observations from a re-analysis of the deposited data

Results flagged for a closer look

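Ptger3 is listed because its class difference ran in opposite directions in the segments. The log2 ratio of mean levels, Gfra3-only over Piezo2-only neurons, was -1.47 in TL neurons (lower in 4 of 5 plates) and 1.91 in LS neurons (higher in 5 of 5 plates). The difference between these ratios was not tested, since TL and LS are 1 sample each. The summed satellite glia markers were higher in TL than in LS neurons (medians of 1995 and 207), and their part in this result was not tested.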

How the results depend on the processing

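No receptor past 2-fold in the comparisons over all neurons turned its direction under an alternative. Ratios within TL or within LS neurons, among them those of Ptger3, were not run under the alternatives. Hrh1, which was not past it between the classes (log2 ratio -0.35), ran from -0.80 to 1.05 and was past it upwards on the deposited scale. With the difference of mean log2(x + 1) in place of the ratio of means, 0 receptors were past the limit between LS and TL (3.36% of all genes), 2 between Gfra3-only and Piezo2-only neurons (7.56%) and 2 between neurons with and without Trpv1 (6.63%). Ptgir, under the limit throughout, moved from a log2 ratio of -0.29 to a difference of 0.40 there. At a fold limit of 1.5, 7 were past it between the classes (26.7%). With plates left out in turn, the counts ran from 1 to 3, from 4 to 6 and from 5 to 7, while 10.3% to 12.2%, 14.9% to 15.7% and 14.2% to 15.1% of all genes were past the limit. Without plate 3 the LS over TL count was 1, as Ptgfr fell below the filter on means. With neurons rich in glial RNA left out, the counts were 2, 5 and 7 (10.2%, 15.2% and 15.3% of all genes). Kept as deposited, without rescaling, the counts were 2, 6 and 6 (17.7%, 22.2% and 22.2%). The share of neurons with a receptor depended on its threshold: at 5 and 20 it was 83.1% and 43.7% for Ptger1, 58.8% and 14.2% for Ptger4, 34.5% and 11.7% for Ptger3, and 29.5% and 3.38% for Hrh3. Of 150 shares under alternatives, 38 moved beyond their interval. The log2 ratio of Ptgfr for LS over TL ran from -5.38 to -0.37 and that of Hrh1 from -2.90 to -0.32. Hrh1, Ptgfr and Bdkrb1 were present in only 14, 6 and 1 neurons, which limits the precision of their shares and means. No paired analysis was possible because the labels' sample numbers pair no neurons between segments and no test was run. Directions within the 5 plates that held both segments are given with the results.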
